A study of Mus musculus with 9 samples.

Results

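The hair bulb was compared with the upper hair follicle of the mouse by RNA sequencing of sorted cells. The bulb side was the mean of 2 populations, basal hair bulb cells (basal HB) and suprabasal hair bulb cells (suprabasal HB), with 4 libraries. The upper side was the mean of hair follicle stem cells of the bulge (HFSC) and outer root sheath cells (ORS), with 5 libraries. All 9 of the 9 libraries of the series entered the comparison, 3 of HFSC and 2 of each other population. Every library came from back skin at postnatal day 30, in anagen VI, when the follicle makes hair. Every sample carries the strain label Lhx2-GFP (CD1) and the sex label "Mixed", and the labels list no treatment. The extraction text names K14-H2BGFP mice instead, so which transgene gave the GFP used for sorting is not settled. Sorting used GFP with antibodies to CD34, P-cadherin, Sca-1 and the integrins α6 and β1, and the labels do not describe the gates. The labels do not say whether the replicates came from separate animals, so p-values measure the spread between these samples, which may be technical.

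The bulge at the top of the growing follicle holds slowly dividing stem cells, and the outer root sheath runs from it down to the bulb. In the bulb, matrix cells next to the dermal papilla divide quickly, and their daughters become the hair shaft and the inner root sheath. WNT signals acting through LEF1 and beta-catenin are known to drive hair shaft formation there, while SOX9, LHX2 and TCF7L1 are known for maintaining stem and sheath cells. Melanocytes in the bulb hand pigment to the hair shaft.

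Total expected counts ran from 25098237 to 29902799 in HFSC, from 64569201 to 88596741 in ORS, and from 45438637 to 63511683 in the bulb libraries, so HFSC was the shallowest. Mitochondrial genes held 4.36% of counts in suprabasal HB and 2.28% to 2.89% in the other populations. HFSC also stood apart in 16 genes that were at 0 in its 3 libraries and at 1 CPM (counts scaled to library size) or more in the other 6, and in 26 genes with the opposite pattern. ORS replicate 1 was above ORS replicate 2 for 48.9% of all genes tested, for 83.8% of the genes higher in the bulb in every comparison described below, and for 15.8% of those lower. What sets the ORS libraries apart was not tested. Values below are normalised CPM, which were compared for the same gene across libraries and not between genes. A log2 change is the bulb mean minus the upper mean over populations, given with its standard error (SE) and edgeR's p adjusted over all genes tested.

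The named markers followed the labels in the 9 libraries. *Lef1*, the transcription factor of WNT signalling (ENSMUSG00000027985, mm10 chromosome 3, 131110471 to 131224356), stood at 22.6, 25.4 and 29.6 CPM in HFSC, 98.8 and 53.8 in the ORS libraries, 268 and 240.1 in basal and 311 and 329 in suprabasal HB. All 4 bulb libraries were above all 5 upper libraries, with ORS replicate 1 the nearest (log2 change 2.68, SE 0.17, adjusted p = 5.4e-06). *Axin2*, a WNT target that dampens the pathway (ENSMUSG00000000142, mm10 chromosome 11, 108920349 to 108950783), was at 12.8, 13.4 and 16.3 CPM in HFSC, 46.5 and 33.9 in the ORS libraries, 127 and 119.9 in basal and 122 and 129 in suprabasal HB (log2 change 2.38, SE 0.11, adjusted p = 1.3e-06). *Tbx2*, a T-box repressor (ENSMUSG00000000093, mm10 chromosome 11, 85832551 to 85841948), was at 1.49, 1.33 and 2.22 CPM in HFSC, 4.71 and 1.49 in the ORS libraries, 44.1 and 43.2 in basal and 47.4 and 28.02 in suprabasal HB (log2 change 4.16, SE 0.35, adjusted p = 2.0e-05). The other pair of markers ran the opposite way. *Sox9*, a factor that stem cells require (ENSMUSG00000000567, mm10 chromosome 11, 112782224 to 112787760), was at 152, 129 and 129.8 CPM in HFSC, 17.5 and 15.7 in the ORS libraries, 7.46 and 7.45 in basal and 2.54 and 1.39 in suprabasal HB (log2 change -3.63, SE 0.15, adjusted p = 9.9e-07). *Cd34*, a bulge surface protein and itself a sort marker (ENSMUSG00000016494, mm10 chromosome 1, 194938819 to 194961279), was at 412, 381 and 344 CPM in HFSC, 65.8 and 80.7 in the ORS libraries, 34.7 and 41.5 in basal and 26.1 and 18.4 in suprabasal HB (log2 change -2.51, SE 0.13, adjusted p = 2.2e-06). For both genes every bulb library was below every upper library, with ORS between HFSC and the bulb. In bulk samples, fewer cells of a type and less RNA per cell cannot be told apart.

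**Figure D1:**
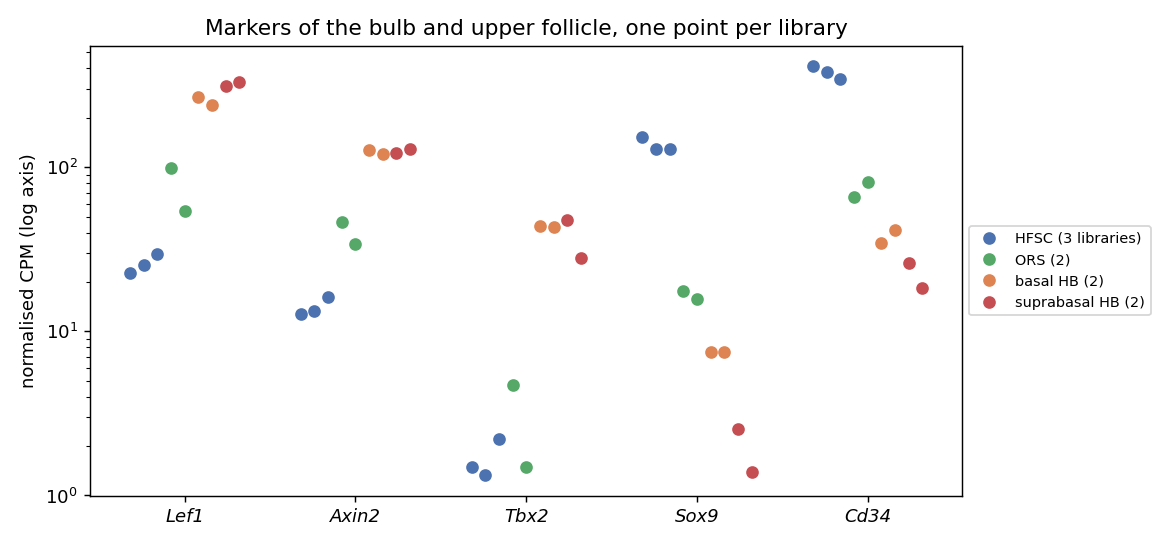
Normalised CPM of the 5 markers on a log axis, one point for each of the 9 libraries, coloured by population. *Lef1*, *Axin2* and *Tbx2* were higher in every bulb library than in any upper library, and *Sox9* and *Cd34* were lower, for example 1.39 to 7.46 CPM of *Sox9* in the bulb against 15.7 to 152 above it.

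Among 20491 genes tested, edgeR called 4419 higher in the bulb (21.6%) and 4727 lower (23.1%) at an adjusted p of 0.05, of which 2307 and 1954 changed at least 2-fold. A mean over unlike layers can be carried by 1 layer, so each bulb layer was also set against the upper mean on its own. Basal HB alone was higher for 19.0% of genes tested and lower for 20.2%, and suprabasal HB for 20.2% and 20.2%. Both layers passed in the same direction for 2071 genes that were higher (10.1% of those tested) and 2554 that were lower (12.5%). Of the 4419 higher genes, 1067 passed in basal HB alone and 1179 in suprabasal HB alone, and 102 in neither. Of the 4727 lower genes these counts were 898, 1091 and 184. The strictest reading asks that each layer differ from each of HFSC and ORS, which makes 4 comparisons. In all 4, 954 genes were higher (4.66%) and 1143 lower (5.58%), and the smallest of the 4 changes was at least 2-fold for 590 and 549 of them. Among all genes tested, every bulb library was above every upper library for 2001 genes and below for 2398. The same held for 953 of the 954 and 1142 of the 1143, so it adds no support for genes chosen from these. The layers were called in opposite directions for 326 genes (1.59%), 194 higher in basal HB and 132 lower there. Without basal HB replicate 1 the lower genes in both layers fell from 2554 to 1528 and those in all 4 comparisons from 1143 to 585, and without ORS replicate 2 the latter were 742. A fit of 2 groups with no term for the populations called 1929 genes higher and 2263 lower, and in it *Shh*, *Wnt2*, *Sfrp1*, *Itga1*, *Mycn*, *Itga6*, *Itgb1*, *Itga8* and *Pdgfrb* were among the genes named below that did not pass. The opposed genes numbered 148 without basal HB replicate 1 and 164 without replicate 2.

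**Figure D2:**
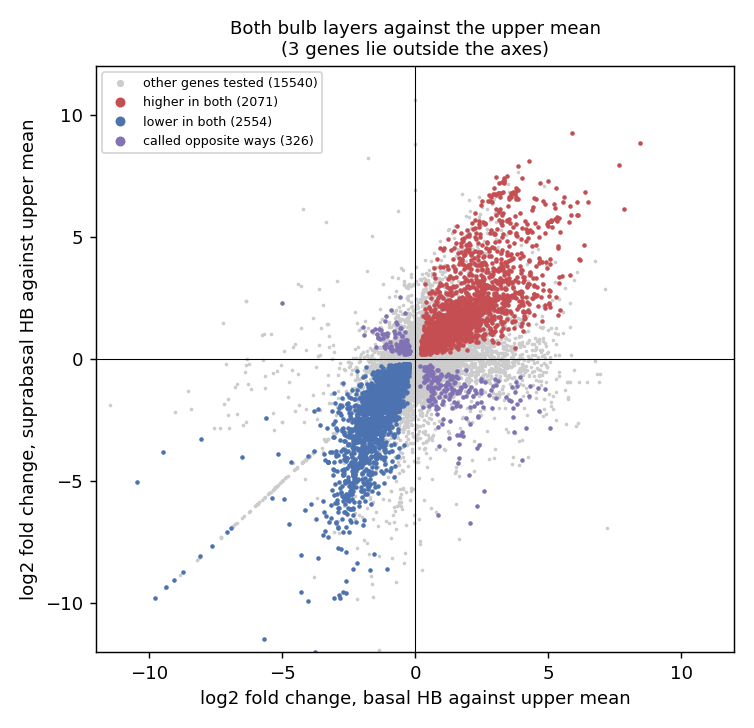
Log2 fold change of each gene tested in basal HB (x axis) and in suprabasal HB (y axis), each against the mean of HFSC and ORS, with axes cut at 12 and 3 genes outside them. The 2071 genes higher and 2554 lower in both layers fill the upper right and lower left corners, and 326 genes lie toward the other corners with opposite calls.

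The 15 autosomal protein-coding genes with the largest smallest change over the 4 comparisons were low or absent in the upper follicle. *Slc26a7*, an anion transporter (ENSMUSG00000040569, mm10 chromosome 4, 14502430 to 14621805), was at 0.834, 1.51 and 0.618 CPM in HFSC, 2.02 and 0.4805 in the ORS libraries, 29.2 and 24.1 in basal and 46.5 and 44.8 in suprabasal HB (log2 change 5.001, SE 0.40, adjusted p = 1.5e-05). *Mybpc1*, a myosin-binding protein (ENSMUSG00000020061, mm10 chromosome 10, 88518279 to 88605152), was at 0.435, 0.3101 and 0.3999 CPM in HFSC, 0.782 and 0.2905 in the ORS libraries, 9.399 and 9.905 in basal and 24.5 and 42.5 in suprabasal HB (log2 change 5.32, SE 0.31, adjusted p = 3.3e-06). In both genes all 4 bulb libraries were above all 5 upper libraries by wide gaps. The others were the potassium channels *Kcnj12* and *Kcna2*, *Fgf12*, an FGF-like protein that stays in the cell, the cadherin *Cdh19*, the receptor *Megf10*, and *Gpm6a*, *Habp2*, *Atp6v0d2* and *B4galt6*. *Atp6v0d2* encodes a proton pump subunit and *B4galt6* makes lactosylceramide. The transcription factors *Tbx2*, *Sox6*, *Tbx4* and *Foxd3* completed the 15. In each of the 15 genes ORS replicate 1 was above ORS replicate 2. In 9 of the 15 suprabasal HB was above basal HB by the test of that difference, in 1 (*B4galt6*) it was below, and in 5 the test was not passed, beside 13.1% above and 14.8% below of all genes tested.

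The 15 genes with the largest falls by the same measure mixed low-abundance genes with abundant ones. *Timp3*, a metalloprotease inhibitor (ENSMUSG00000020044, mm10 chromosome 10, 86300372 to 86349506), was at 2949, 2591 and 2748 CPM in HFSC, 1647 and 2502 in the ORS libraries, 342 and 498 in basal and 94.01 and 61.4 in suprabasal HB (log2 change -3.73, SE 0.21, adjusted p = 2.6e-06). Its bulb libraries lay below its lowest upper library, and suprabasal HB lay below basal HB. *Krt8*, a keratin of simple epithelia, was at 39.1, 48.6 and 40.5 CPM in HFSC, 28.99 and 23.9 in the ORS libraries, 4.96 and 5.93 in basal and 0.603 and 0.492 in suprabasal HB (log2 change -4.28, SE 0.13, adjusted p = 5.0e-07), although 35.9% of its 25-base words occur in a pseudogene, so its reads could be split. *Prickle2*, a planar polarity protein, was at 305, 299 and 305 CPM in HFSC, 209 and 279.8 in the ORS libraries, 40.6 and 53.1 in basal and 27.5 and 21.4 in suprabasal HB (log2 change -3.01, SE 0.13, adjusted p = 1.2e-06), and *Acer3*, a ceramidase, at 429.7, 408 and 354 CPM in HFSC, 315 and 372 in the ORS libraries, 58.1 and 81.05 in basal and 58 and 44.3 in suprabasal HB (log2 change -2.63, SE 0.14, adjusted p = 2.2e-06). Their bulb and upper libraries were separated by several-fold gaps. *Itgb6*, an integrin chain, and *Creb5*, a transcription factor, were also among the 15, as were *Cyp3a13*, *Odam*, *Ucp3*, *Pramef12*, *Capsl*, *A930009A15Rik*, *4930452B06Rik* and *Cps1*. *Cps1*, an enzyme of the urea cycle, varied within HFSC (70.2, 31.8 and 5.78 CPM), and its bulb values of 0.358 to 6.97 overlapped the lowest of these.

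Genes of the WNT pathway were read by role. For this and each list below, the shares of all genes tested were 10.1% higher and 12.5% lower in both layers. In all 4 comparisons the shares were 4.66% and 5.58%. Of 19 tested target and feedback genes, 16 were higher in both bulb layers and 1 was lower, 11 and 1 in all 4 comparisons, and the median log2 change was 2.32 beside 0.00 for all genes tested. *Nkd1*, an inhibitor inside the cell (ENSMUSG00000031661, mm10 chromosome 8, 88521354 to 88594884), was at 3.699, 4.39 and 3.16 CPM in HFSC, 7.63 and 4.101 in the ORS libraries, 38.6 and 38.4 in basal and 70.6 and 77.8 in suprabasal HB (log2 change 3.52, SE 0.18, adjusted p = 1.9e-06). *Notum*, an enzyme that inactivates secreted WNT (ENSMUSG00000042988, mm10 chromosome 11, 120653788 to 120661175), was at 3.48, 3.46 and 3.78 CPM in HFSC, 7.13 and 2.995 in the ORS libraries, 52.2 and 54.7 in basal and 21.4 and 30.5 in suprabasal HB (log2 change 3.13, SE 0.24, adjusted p = 1.3e-05), and 38.1% of its exon length overlaps a gene on the opposite strand. *Nkd1* was highest in suprabasal HB and *Notum* in basal HB. *Bambi*, a decoy receptor, *Apcdd1*, a membrane inhibitor, and *Tnfrsf19*, a TNF receptor family member, were higher by 2.87, 2.68 and 2.62 on the log2 scale. *Sp5*, a transcription factor induced by WNT (ENSMUSG00000075304, mm10 chromosome 2, 70474923 to 70477729), was scarce, at 0.109, 0.266 and 0.0727 CPM in HFSC, 0.605 and 0.224 in the ORS libraries, 1.09 and 1.06 in basal and 4.73 and 5.15 in suprabasal HB (log2 change 3.24, SE 0.36, adjusted p = 1.1e-04), and basal HB did not pass against ORS alone (adjusted p = 0.056). *Lgr5*, a receptor for R-spondin that marks stem cells (ENSMUSG00000020140, mm10 chromosome 10, 115450311 to 115587780), was the exception, at 539.9, 542 and 509.6 CPM in HFSC, 265 and 422 in the ORS libraries, 63.1 and 93.9 in basal and 7.46 and 4.68 in suprabasal HB (log2 change -4.29, SE 0.22, adjusted p = 1.9e-06). *Ccnd1* and *Dkk4* were not called in both layers.

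**Figure D3:**
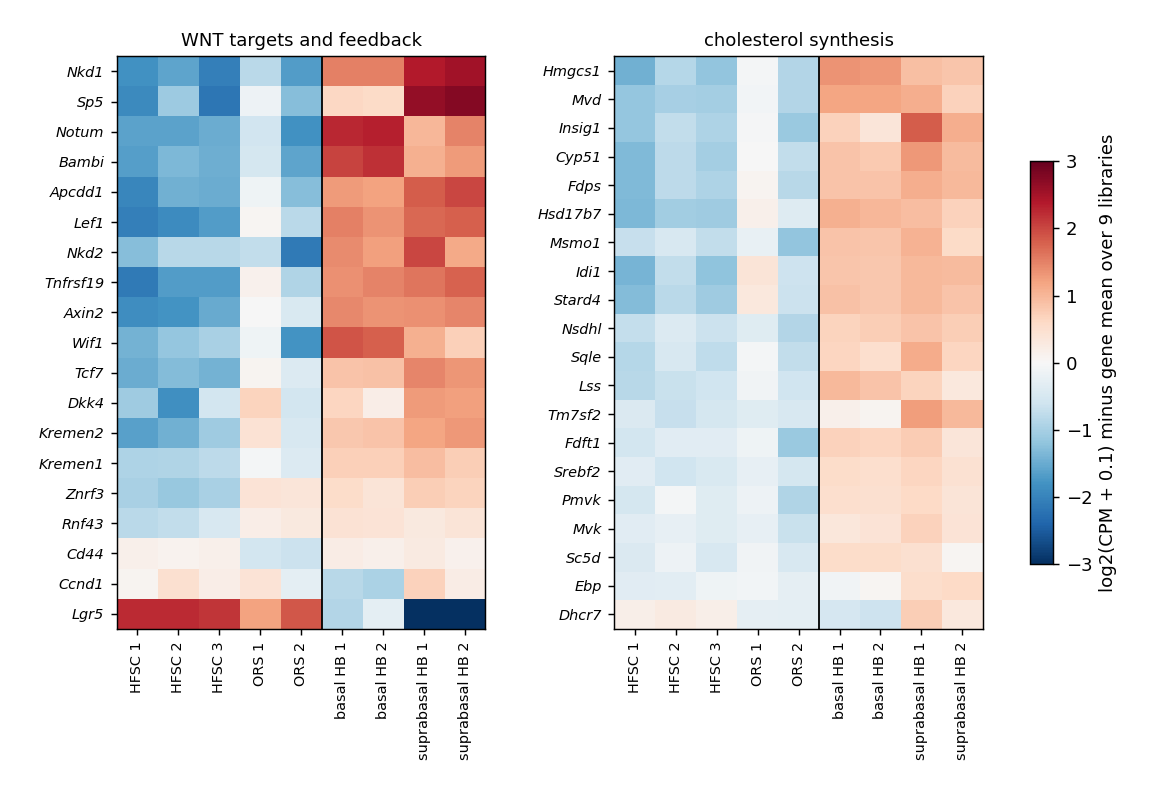
Heat maps of 19 WNT target and feedback genes and 20 of the 24 cholesterol synthesis genes in the 9 libraries, as log2(CPM + 0.1) minus the mean of each gene, with the bulb libraries right of the black line. Red (above the mean) fills the bulb columns of 16 and 18 genes called higher in both layers, and *Lgr5* shows the opposite order.

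The promoter of *Sp5* is shown because it held the most matches to the TCF/LEF motif among the WNT target genes. The sequence is RefSeq's for GRCm38.p6, from 250 bases before to 50 after the start, at chr2:70474673-70474972 on the + strand, with matches to CTTTGA or CTTTGT on either strand in capitals.

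Sp5: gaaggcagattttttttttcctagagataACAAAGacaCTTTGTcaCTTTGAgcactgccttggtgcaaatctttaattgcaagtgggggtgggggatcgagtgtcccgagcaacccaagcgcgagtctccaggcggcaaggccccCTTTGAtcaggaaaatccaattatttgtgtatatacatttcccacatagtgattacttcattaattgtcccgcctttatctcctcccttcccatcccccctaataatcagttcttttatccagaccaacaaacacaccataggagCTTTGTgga

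It held 5 matches, 4 of them before the start. Of the 16 targets higher in both layers, 11 matched a promoter entry, and 3 of these (*Sp5*, *Lef1* and *Tnfrsf19*) held a match, beside 34.5% of all 27025 genes with an entry. The matching windows of *Lef1* and *Tnfrsf19* belong to starts inside the gene model. A match is a description of letters, and its use in these cells was not tested.

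Of 13 WNT ligands tested, 7 were higher in both layers and 2 lower, with a median log2 change of 1.29. *Wnt3* (ENSMUSG00000000125, mm10 chromosome 11, 103774150 to 103817957) was at 2.79, 4.12 and 4.54 CPM in HFSC, 8.502 and 3.17 in the ORS libraries, 98.4 and 102 in basal and 25.02 and 27.9 in suprabasal HB (log2 change 3.45, SE 0.27, adjusted p = 1.5e-05), and basal HB exceeded suprabasal HB. *Wnt5a* was at 21.6, 26.1 and 29.2 CPM in HFSC, 152 and 87.6 in the ORS libraries, 222 and 178 in basal and 223 and 236 in suprabasal HB (log2 change 1.95, SE 0.17, adjusted p = 2.4e-05), where ORS replicate 1 came near the lowest bulb library. *Wnt4*, *Wnt10a*, *Wnt10b*, *Wnt6* and *Wnt2* were also higher in both layers, by 1.13 to 3.16. *Wnt2* in basal HB did not pass against HFSC alone (edgeR adjusted p = 0.79). *Wnt9a* (ENSMUSG00000000126, mm10 chromosome 11, 59306928 to 59333552) was at 42.5, 36.02 and 43.2 CPM in HFSC, 21.2 and 27.8 in the ORS libraries, 7.45 and 10.2 in basal and 2.64 and 2.53 in suprabasal HB (log2 change -2.72, SE 0.14, adjusted p = 1.9e-06) and was lower in all 4 comparisons, and *Wnt5b* was lower in both layers. *Wnt7b* passed in basal HB alone, at 18.3 and 20.95 CPM there, 3.11 and 4.498 in suprabasal HB and 2.90 to 4.26 in the upper libraries. Of 12 secreted antagonists, 3 were higher in both layers (*Notum*, *Wif1* and *Sfrp4*) and 2 lower (*Igfbp4* and *Sfrp1*), with a median of 1.74. *Sfrp4* in basal HB did not pass against HFSC alone (edgeR adjusted p = 0.88). *Wif1*, which binds WNT, was at 17.6, 21.2 and 24.2 CPM in HFSC, 43.7 and 13.7 in the ORS libraries, 175 and 164 in basal and 100.1 and 77.3 in suprabasal HB (log2 change 2.32, SE 0.29, adjusted p = 2.5e-04). *Sfrp1*, a Frizzled-related protein, was at 775, 794 and 769 CPM in HFSC, 96.6 and 45.4 in the ORS libraries, 81.4 and 88.9 in basal and 10.9 and 11.2 in suprabasal HB (log2 change -2.94, SE 0.21, adjusted p = 7.9e-06). In ORS *Sfrp1* lay near its basal HB level, and HFSC stood above all other libraries. *Dkk2*, an antagonist of the co-receptors, was at 43.3 and 46.5 CPM in basal HB and at most 1.09 CPM elsewhere, so it did not change the same way in both layers.

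Most receptors ran the opposite way from the ligands. Of 18 Frizzled, LRP, LGR, ROR and RYK receptors, 12 were lower in both layers and 2 higher, 9 and 0 in all 4 comparisons, with a median of -0.82. *Fzd1* (ENSMUSG00000044674, mm10 chromosome 5, 4753839 to 4758035) was at 604, 527 and 549 CPM in HFSC, 578 and 830.4 in the ORS libraries, 173 and 226 in basal and 128 and 99.6 in suprabasal HB (log2 change -2.06, SE 0.15, adjusted p = 8.7e-06). *Fzd4*, *Fzd5* and the co-receptor *Lrp6* had log2 changes of -2.42, -1.79 and -1.03. *Fzd10* was at 23.3, 31.5 and 33.7 CPM in HFSC, 134 and 98.2 in the ORS libraries, 144 and 142 in basal and 190.4 and 193 in suprabasal HB (log2 change 1.502, SE 0.13, adjusted p = 2.1e-05), and with *Fzd3* it was one of the 2 receptors higher in both layers. The ORS values of *Fzd10* approached its basal HB values.

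Transcription factors separated the compartments in both directions. Of 23 matrix factors tested, 13 were higher in both layers, 11 of them in all 4 comparisons, and 5 were lower, with a median of 1.36. *Tbx3*, a T-box repressor (ENSMUSG00000018604, mm10 chromosome 5, 119670669 to 119684724), was at 0.834, 0.266 and 0.836 CPM in HFSC, 0.62 and 0.3799 in the ORS libraries, 6.3 and 6.08 in basal and 13.2 and 10.5 in suprabasal HB (log2 change 3.902, SE 0.29, adjusted p = 1.1e-05). *Foxq1*, a forkhead factor of the hair shaft medulla, was at 10.7, 12.4 and 14.2 CPM in HFSC, 42.8 and 25.6 in the ORS libraries, 649 and 719 in basal and 98.01 and 188 in suprabasal HB (log2 change 3.92, SE 0.24, adjusted p = 3.6e-06), and 66.1% of its exon length overlaps a gene on the opposite strand. *Prdm1*, a repressor also called BLIMP1, was at 12.3, 9.75 and 10.1 CPM in HFSC, 25.6 and 10.4 in the ORS libraries, 253 and 245 in basal and 68.3 and 93.9 in suprabasal HB (log2 change 3.35, SE 0.25, adjusted p = 1.1e-05). *Foxq1* and *Prdm1* were higher in basal HB than in suprabasal HB, and their suprabasal levels still exceeded all upper libraries. *Msx1*, *Msx2* and *Hoxc13*, homeobox factors of hair formation, were higher by 1.96, 1.61 and 1.68. *Vdr*, the vitamin D receptor (ENSMUSG00000022479, mm10 chromosome 15, 97854425 to 97910630), was listed with the matrix factors but fell, at 2343, 1693 and 1921 CPM in HFSC, 936 and 1331 in the ORS libraries, 227 and 342 in basal and 72.4 and 90.2 in suprabasal HB (log2 change -3.302, SE 0.19, adjusted p = 3.1e-06).

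Over all genes, the transcription factors with the largest rises in all 4 comparisons were *Tbx2*, *Sox6*, *Tbx4*, *Foxd3*, *Rxrg*, *Tbx3*, *Sox10*, *Alx1*, *Arnt2* and *Runx3*. *Sox6*, an SRY-box factor, was at 0.5802, 0.576 and 0.3999 CPM in HFSC, 1.09 and 0.2905 in the ORS libraries, 11.2 and 10.2 in basal and 17.2 and 16.4 in suprabasal HB (log2 change 4.498, SE 0.34, adjusted p = 1.3e-05). *Runx3*, a RUNT factor, was at 0.907, 0.354 and 0.436 CPM in HFSC, 2.24 and 0.436 in the ORS libraries, 12.2 and 7.08 in basal and 77.02 and 54.3 in suprabasal HB (log2 change 4.86, SE 0.47, adjusted p = 4.9e-05). *Sox10* and *Foxd3* are known from the neural crest lineage that gives rise to melanocytes. The 15 melanocyte markers described below were, like them, higher in both layers, and 14 were also higher in suprabasal HB than in basal HB. The other, *Gpnmb*, ran the opposite way between the layers and is part of the sums. The 15 summed to 4205 to 4604 CPM in basal HB and 19940 to 20460 in suprabasal HB. The part of melanocytes in these rises was not tested. The *Sox10* and *Runx3* levels were several-fold higher in suprabasal HB than in basal HB, and the layer difference of *Sox6* did not pass (edgeR adjusted p = 0.29).

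Of 17 bulge factors, 10 were lower in both layers and 3 higher (*Foxp1*, *Foxc1* and *Nfatc1*), with a median of -1.10. *Nfib*, a nuclear factor of stem cells, was at 995, 871 and 905 CPM in HFSC, 643 and 801 in the ORS libraries, 211 and 231 in basal and 206 and 147 in suprabasal HB (log2 change -2.05, SE 0.13, adjusted p = 4.1e-06). *Lhx2*, the LIM factor after which the strain is named and possibly gated through GFP (ENSMUSG00000000247, mm10 chromosome 2, 38339281 to 38369733), was at 1351, 1274 and 1422 CPM in HFSC, 2961 and 3383 in the ORS libraries, 354 and 479.9 in basal and 476 and 235 in suprabasal HB (log2 change -2.42, SE 0.21, adjusted p = 2.6e-05). *Tcf7l1*, a TCF factor of stem cells, was at 203, 125 and 149 CPM in HFSC, 66.7 and 95.1 in the ORS libraries, 29.1 and 34.4 in basal and 7.94 and 5.51 in suprabasal HB (log2 change -2.95, SE 0.20, adjusted p = 6.0e-06). For *Nfib* and *Lhx2* the difference between the layers did not pass (edgeR adjusted p = 0.21 and 0.60), while *Tcf7l1* was lower still in suprabasal HB. The 10 factors with the largest falls in all 4 comparisons included *Creb5*, *Foxj1*, *Vdr*, *Tbx1*, *Irx2*, *Nfib*, *Lhx2*, *Irx1* and *Foxe1*. *Nfatc1*, a factor known for bulge quiescence, was at 3.01, 5.45 and 4.58 CPM in HFSC, 2.57 and 1.04 in the ORS libraries, 6.36 and 6.29 in basal and 7.503 and 6.602 in suprabasal HB (log2 change 1.26, SE 0.27, adjusted p = 0.0051), with HFSC replicate 2 the upper library nearest the bulb. The 3 higher factors were 1 without either basal HB replicate.

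Surface and niche genes of the bulge were mostly lower in the bulb. Of 18 genes, 13 were lower in both layers and 1 higher (*Crym*), with a median of -2.07, and the 1 became 3 without ORS replicate 1. *Krt15*, a keratin of bulge cells (ENSMUSG00000054146, mm10 chromosome 11, 100131758 to 100135928), was at 2840, 2687 and 2379 CPM in HFSC, 1379 and 1894 in the ORS libraries, 294 and 449 in basal and 52.1 and 62.3 in suprabasal HB (log2 change -3.83, SE 0.18, adjusted p = 1.2e-06). *Fgf5*, which ends hair growth (ENSMUSG00000029337, mm10 chromosome 5, 98254184 to 98277030), was at 254, 219 and 241 CPM in HFSC, 146 and 268 in the ORS libraries, 32.9 and 53.8 in basal and 3.71 and 8.46 in suprabasal HB (log2 change -3.77, SE 0.30, adjusted p = 1.6e-05). *Ltbp2*, a matrix protein that binds latent TGF-beta relatives (ENSMUSG00000002020, mm10 chromosome 12, 84783212 to 84876532), was at 40.5, 49.1 and 29.7 CPM in HFSC, 4.81 and 10.7 in the ORS libraries, 1.79 and 2.81 in basal and 0.377 and 0.201 in suprabasal HB (log2 change -4.41, SE 0.34, adjusted p = 1.3e-05). In all 3 genes basal HB was below both upper populations and suprabasal HB below basal HB, by the test of each difference.

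Growth factor pathways were mixed, with inhibitors among the members that rose. Of 27 BMP pathway genes, 7 were higher in both layers and 4 lower, beside 10.1% and 12.5% of all genes tested, with a median of 0.29. *Bmp2*, a ligand (ENSMUSG00000027358, mm10 chromosome 2, 133552159 to 133562885), was at 5.44, 4.03 and 5.12 CPM in HFSC, 15.2 and 6.89 in the ORS libraries, 141 and 143 in basal and 32.1 and 38.3 in suprabasal HB (log2 change 3.27, SE 0.22, adjusted p = 6.2e-06). *Smad7* and *Smad6*, which block receptor signals inside the cell, were higher by 1.78 and 1.40, and *Bmp4* by 2.25. *Bmp6*, a ligand of the bulge, and *Id4* had changes of -2.31 and -2.44. Of 22 TGF-beta and activin genes, 11 were lower in both layers and 2 higher, with a median of -0.38. *Inhbb*, an activin subunit (ENSMUSG00000037035, mm10 chromosome 1, 119415465 to 119422248), was at 221, 192 and 162 CPM in HFSC, 33.1 and 35.2 in the ORS libraries, 20.98 and 22.1 in basal and 1.96 and 2.01 in suprabasal HB (log2 change -3.63, SE 0.11, adjusted p = 3.8e-07). *Ltbp3* and the receptor *Tgfbr2* had changes of -2.19 and -1.10, and *Smad3* was higher by 0.999. The 2 higher genes were 1 without ORS replicate 2 or either basal HB replicate.

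In the hedgehog list of 16 genes, 2 were higher in both layers and 6 lower, beside 10.1% and 12.5% of all genes tested. *Shh*, the ligand made by matrix cells, was at 4.79, 7.398 and 10.8 CPM in HFSC, 36.96 and 13.2 in the ORS libraries, 42.5 and 37.9 in basal and 46.8 and 43.04 in suprabasal HB (log2 change 1.62, SE 0.31, adjusted p = 0.0026), with 28.3% of its exon length overlapped by a gene on the opposite strand. ORS replicate 1 lay close under the bulb values. *Gli1*, a target of the pathway, was at 287, 211 and 249.5 CPM in HFSC, 244 and 259 in the ORS libraries, 97.3 and 95.97 in basal and 101 and 85.9 in suprabasal HB (log2 change -1.397, SE 0.10, adjusted p = 1.0e-05), and *Ptch1*, the receptor and a target, had a change of -0.98. *Gli3*, which can repress targets, was higher by 1.51. The 6 lower genes numbered 2 on TPM values and 3 without basal HB replicate 1, and the 2 higher ones 4 without HFSC replicate 1 or 2 and 1 without basal HB replicate 1.

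NOTCH genes were higher in both layers in 4 of 24 cases (*Hey2*, *Heyl*, *Notch3* and *Hes1*, effectors and a receptor) and lower in 2 (*Dll1*, a ligand, and *Lfng*, which modifies receptors). Beside these and the FGF, EGF and ectodysplasin counts below, the shares of all genes tested were 10.1% and 12.5%. *Notch3* was at 51.4, 40.5 and 58.2 CPM in HFSC, 46.9 and 30.2 in the ORS libraries, 261 and 267 in basal and 107 and 64.1 in suprabasal HB (log2 change 1.78, SE 0.19, adjusted p = 8.4e-05). The 4 were 2 without suprabasal HB replicate 1, and the 2 were 1 without basal HB replicate 1 or on TPM values. Of 19 FGF genes, 3 were higher and 4 lower, and of 17 EGF genes, 1 and 4. *Lrig1*, which lowers EGF receptor levels (ENSMUSG00000030029, mm10 chromosome 6, 94604529 to 94700158), was at 496, 439 and 463 CPM in HFSC, 206 and 283 in the ORS libraries, 51.1 and 71.95 in basal and 12.1 and 6.16 in suprabasal HB (log2 change -3.83, SE 0.22, adjusted p = 3.2e-06). *Fgfr3* and *Egfr*, receptors of the 2 families, had changes of -2.09 and -0.98, and *Nrg2*, a neuregulin, was higher by 3.44. Of 12 ectodysplasin genes, 4 were higher and 2 lower. The 4 fell to 1 without basal HB replicate 1, to 2 without basal HB replicate 2 or suprabasal HB replicate 2, and to 2 on TPM values. The 2 lower ones fell to 0 on TPM values and without basal HB replicate 1, and to 1 without ORS replicate 2, basal HB replicate 2 or either suprabasal HB replicate. The 3 higher FGF genes were 5 without ORS replicate 1 or suprabasal HB replicate 2, and the 1 higher EGF gene 2 without HFSC replicate 1.

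Guidance cues, the semaphorins, plexins, ephrins and netrins, changed in opposite directions, 12 of 41 higher in both layers and 14 lower, with a median of 0.10. *Unc5b*, a netrin receptor (ENSMUSG00000020099, mm10 chromosome 10, 60762593 to 60831581), was at 35.9, 37.6 and 41.2 CPM in HFSC, 83.6 and 41.8 in the ORS libraries, 584 and 558 in basal and 466 and 512 in suprabasal HB (log2 change 3.43, SE 0.19, adjusted p = 2.6e-06). *Sema6d*, *Plxnd1* and *Nrp1* were higher by 3.88, 2.72 and 2.41. *Ephb6*, an Eph receptor (ENSMUSG00000029869, mm10 chromosome 6, 41605482 to 41620509), was at 396, 328 and 334 CPM in HFSC, 80.4 and 92.6 in the ORS libraries, 38.03 and 40.5 in basal and 10.01 and 5.57 in suprabasal HB (log2 change -3.32, SE 0.17, adjusted p = 1.9e-06). *Slit3*, *Sema3e* and *Efna5* had changes of -3.52, -3.50 and -2.47. For *Unc5b* the difference between the layers did not pass (edgeR adjusted p = 0.57), and *Ephb6* was lower in suprabasal HB.

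Retinoid genes also split by enzyme. Of 21 tested, 9 were higher in both layers and 4 lower, with a median of 0.47. *Stra6*, the receptor that imports vitamin A (ENSMUSG00000032327, mm10 chromosome 9, 58063788 to 58153996), was at 28.5, 28.8 and 36.4 CPM in HFSC, 50.3 and 47.7 in the ORS libraries, 547 and 631 in basal and 193 and 328 in suprabasal HB (log2 change 3.33, SE 0.17, adjusted p = 1.7e-06). *Aldh1a3*, which makes retinoic acid (ENSMUSG00000015134, mm10 chromosome 7, 66390890 to 66427517), was at 17.6, 31.6 and 33.7 CPM in HFSC, 113 and 28.1 in the ORS libraries, 501 and 514 in basal and 408 and 399.8 in suprabasal HB (log2 change 3.36, SE 0.38, adjusted p = 1.3e-04). *Dhrs9*, a retinol dehydrogenase (ENSMUSG00000027068, mm10 chromosome 2, 69380445 to 69404533), was at 227, 228 and 212 CPM in HFSC, 72.5 and 105 in the ORS libraries, 15.03 and 22.5 in basal and 1.45 and 0.918 in suprabasal HB (log2 change -4.89, SE 0.20, adjusted p = 9.1e-07), and *Aldh1a2*, another enzyme that makes retinoic acid, had a change of -4.29. *Aldh1a3* and *Aldh1a2* thus had opposite orders between bulb and upper follicle.

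Genes of the basement membrane were lower more often than higher. Of 32 basement membrane and hemidesmosome genes, 15 were lower in both layers and 4 higher (*Lama1*, *Lama4*, *Nid1* and *Nid2*), with a median of -1.09. *Col18a1*, a basement membrane collagen (ENSMUSG00000001435, mm10 chromosome 10, 77052178 to 77166548), was at 1813, 1508 and 1640 CPM in HFSC, 559 and 786 in the ORS libraries, 332 and 387 in basal and 123 and 122 in suprabasal HB (log2 change -2.33, SE 0.12, adjusted p = 2.2e-06). *Lamb3*, a laminin chain, and *Col17a1*, a hemidesmosome collagen, had changes of -2.46 and -1.83. The 4 higher genes were 2 on TPM values and without basal HB replicate 1. Of 18 integrin chains, 5 were lower and 3 higher. *Itgb3* was at 1.704, 1.51 and 2.11 CPM in HFSC, 2.14 and 1.01 in the ORS libraries, 9.44 and 6.92 in basal and 58.3 and 60.99 in suprabasal HB (log2 change 3.73, SE 0.23, adjusted p = 3.8e-06). *Itga9* and *Itga4* were higher by 2.62 and 2.65, and *Itga1* had a change of -3.37. Of 24 metalloproteases and inhibitors, 6 were lower and 4 higher, beside 12.5% and 10.1% of all genes tested. *Timp2* was at -1.73 and *Mmp28* at 3.03 on the log2 scale. The 4 higher genes of this list were 2 on TPM values and without suprabasal HB replicate 1.

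Gap junction genes moved apart by subunit. Of 12, 6 were higher in both layers and 3 lower, with a median of 1.62. *Gja3* (ENSMUSG00000048582, mm10 chromosome 14, 57034460 to 57058100) was at 0.435, 0.753 and 0.691 CPM in HFSC, 1.92 and 0.7598 in the ORS libraries, 17.7 and 18.8 in basal and 9.28 and 12.3 in suprabasal HB (log2 change 3.95, SE 0.29, adjusted p = 1.0e-05). *Gjb2* was at 4096, 4018 and 3790 CPM in HFSC, 2164 and 2994 in the ORS libraries, 776 and 1084 in basal and 496 and 466 in suprabasal HB (log2 change -2.26, SE 0.14, adjusted p = 4.7e-06), and *Gja1*, the most widely expressed of the family, had a change of -1.34. Of 21 cadherin and tight junction genes, 4 were higher and 4 lower, with *Cdh2*, the neural cadherin, at 3.66 and *F11r* at -1.75. Desmosome genes were higher in 2 of 17 cases and lower in 1, beside 10.1% and 12.5% of all genes tested. These 2 were 1 without either basal HB replicate. The 1 was 2 without ORS replicate 1 or with DESeq2, and 0 without suprabasal HB replicate 2.

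Hair shaft keratins were higher in both layers, and inner root sheath genes were mixed. Of 12 hair shaft keratins tested, 10 were higher in both layers and 1 lower (*Krt32*), with a median of 2.95, and the 10 were 6 without basal HB replicate 2. *Krt35*, an early keratin of the shaft (ENSMUSG00000048013, mm10 chromosome 11, 100092193 to 100096241), was at 29.6, 50.1 and 37.4 CPM in HFSC, 50.2 and 12.4 in the ORS libraries, 115 and 92.6 in basal and 1431 and 1581 in suprabasal HB (log2 change 3.501, SE 0.38, adjusted p = 8.9e-05). Suprabasal HB stood above basal HB, and both stood above the highest upper library. *Krt86* and *Krt83* were higher by 3.58 and 3.31, although 52.2% of the 25-base words of *Krt86* are shared with *Krt81*. Suprabasal HB was above basal HB in 11 of the 12 genes by the test. Of 16 inner root sheath genes, 4 were higher in both layers and 1 lower (*Gata3*), with a median of 1.60. *Gata3* lost its call in both layers with upper-quartile scaling and without each library but ORS replicate 1 and suprabasal HB replicate 1. *Tchh*, trichohyalin (ENSMUSG00000052415, mm10 chromosome 3, 93442330 to 93449077), was at 122, 163 and 171 CPM in HFSC, 156 and 85.05 in the ORS libraries, 3818 and 4193 in basal and 628 and 622 in suprabasal HB (log2 change 3.55, SE 0.20, adjusted p = 2.5e-06), and here basal HB was the higher layer. *Tgm3*, a transglutaminase, and *Padi1*, a deiminase, were higher by 3.28 and 2.90. Of 10 outer root sheath and companion keratins, 6 were lower and 1 higher, with a median of -2.07. *Krt5*, a basal keratin, was at 5513, 6251 and 5669 CPM in HFSC, 2349 and 3090 in the ORS libraries, 1115 and 1291 in basal and 709.9 and 719.9 in suprabasal HB (log2 change -2.100, SE 0.12, adjusted p = 2.6e-06), and *Krt75*, a keratin of the companion layer (ENSMUSG00000022986, mm10 chromosome 15, 101563345 to 101573904), at 95.01, 122 and 113 CPM in HFSC, 137 and 112 in the ORS libraries, 1060 and 1129 in basal and 193 and 249.9 in suprabasal HB (log2 change 2.07, SE 0.12, adjusted p = 2.7e-06). *Krt6a* was lower in both layers (-3.38), with 53.4% of its words shared with another keratin. The 1 higher gene became 2 without ORS replicate 1.

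Cholesterol synthesis was the metabolic list with the largest share of genes higher in both layers. Of 24 genes, 20 were higher and 0 lower, 18 higher in all 4 comparisons, with a median of 1.30. The count of 0 by edgeR was also 0 at an unadjusted p of 0.05 and with DESeq2 or limma, here and for the lipid storage and sebaceous genes and the replication genes below. *Hmgcs1*, an early enzyme of the pathway (ENSMUSG00000093930, mm10 chromosome 13, 119690379 to 119708260), was at 105, 157 and 125 CPM in HFSC, 274 and 154 in the ORS libraries, 724 and 702 in basal and 533 and 509 in suprabasal HB (log2 change 1.88, SE 0.18, adjusted p = 4.5e-05). *Mvd*, which makes isopentenyl diphosphate (ENSMUSG00000006517, mm10 chromosome 8, 122433601 to 122443422), was at 11.9, 13.4 and 13.3 CPM in HFSC, 25.5 and 14.5 in the ORS libraries, 61.3 and 61.2 in basal and 57.2 and 43.3 in suprabasal HB (log2 change 1.79, SE 0.16, adjusted p = 3.2e-05). In both genes all 4 bulb libraries were above all 5 upper libraries, as in 953 of the 954 genes higher in all 4 comparisons. *Srebf2*, the factor that activates the pathway, was higher by 0.95. *Idi1* and *Insig1* passed in both layers but not in all 4 comparisons. *Ebp* was among the genes not called in both layers, and *Dhcr7*, a last step of synthesis, was lower in basal HB and higher in suprabasal HB. ORS replicate 1 exceeded ORS replicate 2 for each of the 24 genes. Without single libraries and under the other settings the 20 genes were 18 to 21.

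The promoter of *Hmgcs1* is shown because it was the 1 cholesterol promoter with the sterol regulatory element TCACNCCAC, a motif chosen after the values were seen. The sequence is RefSeq's for GRCm38.p6 at chr13:119690101-119690400 on the + strand, with the match on either strand in capitals.

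Hmgcs1: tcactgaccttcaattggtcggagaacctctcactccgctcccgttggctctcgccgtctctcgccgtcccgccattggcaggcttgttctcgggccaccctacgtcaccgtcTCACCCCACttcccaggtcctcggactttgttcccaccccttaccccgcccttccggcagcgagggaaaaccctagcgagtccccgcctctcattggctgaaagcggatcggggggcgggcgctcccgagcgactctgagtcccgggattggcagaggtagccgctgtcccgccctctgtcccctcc

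Of the 20 genes higher in both layers, 14 matched a promoter entry, and 1 held the element beside 1.44% of all genes. Other spellings of the element were not searched.

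Of 22 lipid storage genes, 11 were higher in both layers and 0 lower, with a median of 0.89. *Mgll*, a lipase, was at 11.3, 14.8 and 14.1 CPM in HFSC, 18.4 and 6.16 in the ORS libraries, 99.2 and 86.6 in basal and 528 and 463 in suprabasal HB (log2 change 4.07, SE 0.29, adjusted p = 9.3e-06). *Soat1*, which esterifies cholesterol, was at 91.3, 87.9 and 80.04 CPM in HFSC, 74.5 and 56.9 in the ORS libraries, 1004 and 1014 in basal and 94.03 and 112 in suprabasal HB (log2 change 2.098, SE 0.10, adjusted p = 1.5e-06), and its suprabasal level did not pass against HFSC (adjusted p = 0.15). *Scd2* and *Dgat2* were higher by 1.70 and 1.97. Of 23 glycolysis and lactate genes, 9 were higher and 6 lower, with a median of 0.35. *Hk2* and *Ldha*, enzymes of glycolysis, were higher by 1.30 and 0.59, and *Slc16a1*, a lactate carrier, had a change of -1.14. The 6 lower genes were 2 without basal HB replicate 1, 3 without HFSC replicate 1 and 2 on TPM values with a pseudocount of 0.1.

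Cell cycle genes changed in 1 layer more than in both. Of 35 DNA replication genes, 2 were lower in both layers and 0 higher, with a median of -0.21, although 33 were lower in basal HB and 3 in suprabasal HB, beside 20.2% of all genes for either layer. *Mcm6*, a helicase subunit, was at 159.6, 222 and 206 CPM in HFSC, 311 and 293 in the ORS libraries, 121 and 122 in basal and 209 and 199.5 in suprabasal HB (log2 change -0.63, SE 0.10, adjusted p = 9.4e-04). Its ORS libraries were above all others, and its HFSC libraries overlapped suprabasal HB, so the upper mean mixed unlike levels. The 35 replication genes summed to 2174 to 2603 CPM in HFSC and 4121 to 4328 in ORS. Their sums were 2120 to 2195 in basal HB and 3284 to 3298 in suprabasal HB, which lay between HFSC and ORS. Of 33 mitosis genes, 3 were lower in both layers and 0 higher by edgeR, with a median of -0.20. The 0 was 0 at an unadjusted p of 0.05 and with DESeq2, and 1 with limma on TPM values. The 33 mitosis genes summed to 2133 to 2630 CPM in HFSC and 5342 to 5758 in ORS. Their sums were 3012 to 3073 in basal HB and 3407 to 3651 in suprabasal HB. Both bulb layers thus lay above HFSC and below ORS. Of 31 ribosome biogenesis genes, 1 was higher in both layers (*Mycn*) and 1 lower (*Tcof1*), and 21 were higher in suprabasal HB, beside 20.2% of all genes. Of these lists, the ribosome genes higher in both layers moved most with the setting, to 9 and 10 on TPM values, 4 with upper-quartile scaling, 5 and 4 without HFSC replicate 2 or 3, and 2 with DESeq2 or without HFSC replicate 1 or suprabasal HB replicate 2. The 3 lower mitosis genes were 1 without basal HB replicate 1 or suprabasal HB replicate 1, and the 2 lower replication genes were 1 without HFSC replicate 2 or 3, ORS replicate 1 or either suprabasal HB replicate. Of 7 CDK inhibitors, *Cdkn1a* and *Cdkn2b* were higher in both layers. *Cdkn1a*, known as p21 (ENSMUSG00000023067, mm10 chromosome 17, 29090976 to 29100727), was at 28.8, 38.3 and 36.9 CPM in HFSC, 32.3 and 18.4 in the ORS libraries, 203 and 221 in basal and 124 and 146 in suprabasal HB (log2 change 2.51, SE 0.17, adjusted p = 6.2e-06).

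Antigen presentation genes were lower in both layers in 11 of 28 cases and higher in 1 (*Psmb10*), with a median of -0.39 and 2 lower in all 4 comparisons. *Tap1*, a peptide transporter, was at 68.4, 64.9 and 63.98 CPM in HFSC, 22.5 and 23.4 in the ORS libraries, 17.9 and 17.4 in basal and 16.5 and 12.1 in suprabasal HB (log2 change -1.29, SE 0.09, adjusted p = 8.4e-06), where the ORS values were close to the bulb. The 11 were 7 without basal HB replicate 1 and on TPM values, and the 1 was 0 without ORS replicate 2 or either basal HB replicate. Immediate early and heat shock genes were higher in 4 of 25 cases and lower in 4, and epidermal differentiation genes in 2 and 2 of 19. The shares of all genes tested were 10.1% and 12.5%. The 4 lower early genes were 0 without basal HB replicate 1, 7 without suprabasal HB replicate 1, and 2 on TPM values and without HFSC replicate 2 or 3 or basal HB replicate 2. The epidermal genes in each direction were 1 without either suprabasal HB replicate, and the lower ones also without HFSC replicate 3 or ORS replicate 1 and on TPM values.

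**Figure D4:**
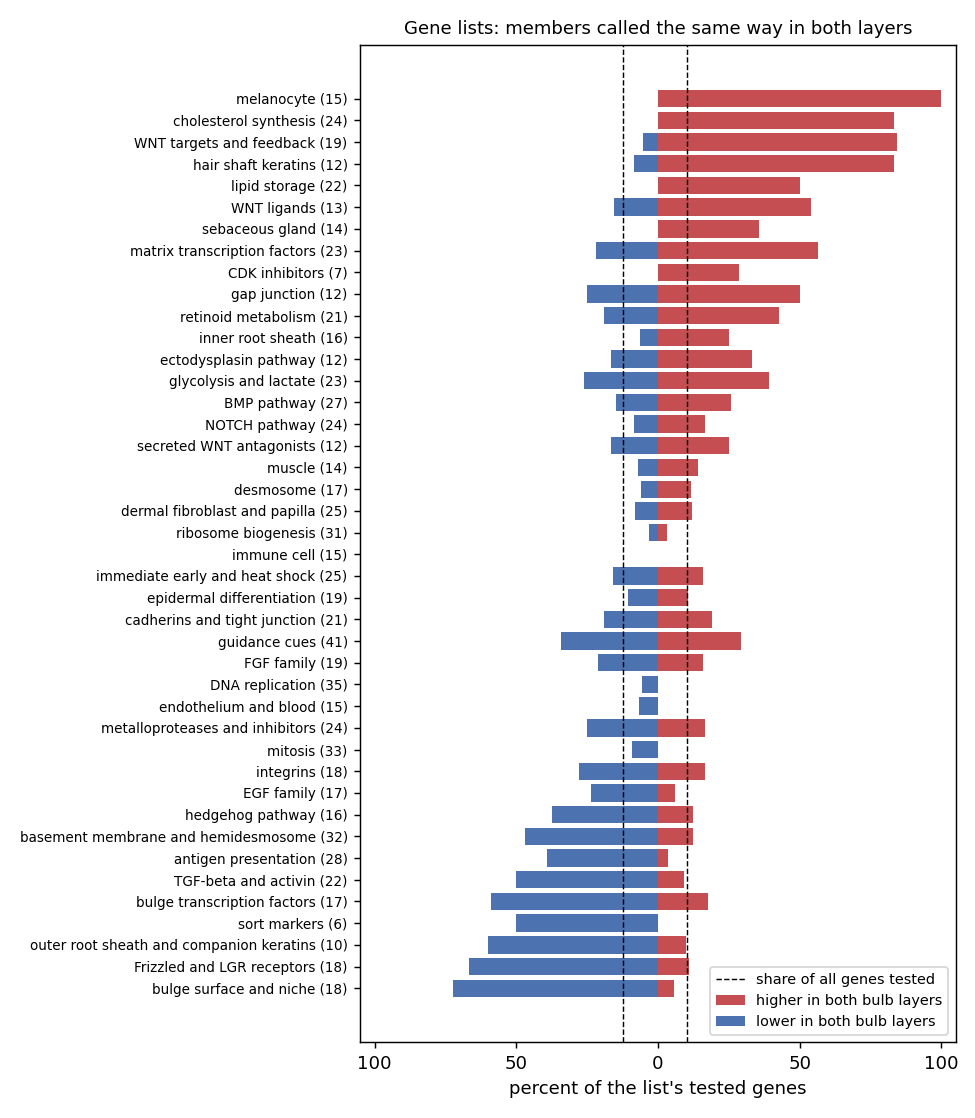
Share of the tested genes of each of the 42 lists that was higher (red, right) or lower (blue, left) in both bulb layers, with the number of genes in brackets and dashed lines at the shares of all genes tested, 10.1% and 12.5%. Melanocyte, cholesterol synthesis, WNT target and hair shaft keratin lists reach furthest to the right, and bulge surface, Frizzled and LGR, and outer root sheath keratin lists to the left.

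Markers of other cell types moved with several of these groups. All 15 melanocyte genes were higher in both layers and 14 in all 4 comparisons, with a median of 4.97. Their summed level was 210 to 290 CPM in HFSC, 168 to 577 in ORS, 4205 to 4604 in basal HB and 19940 to 20460 in suprabasal HB. *Tyrp1*, a melanin enzyme, was at 14.7, 29.02 and 17.2 CPM in HFSC, 70.5 and 6.42 in the ORS libraries, 304 and 189 in basal and 3973 and 4211 in suprabasal HB (log2 change 5.17, SE 0.65, adjusted p = 2.4e-04). *Mitf*, the master factor of the lineage, was at 8.67, 9.97 and 9.71 CPM in HFSC, 13.2 and 11.3 in the ORS libraries, 33.3 and 22.1 in basal and 265 and 202 in suprabasal HB (log2 change 2.901, SE 0.14, adjusted p = 1.5e-06). *Gpnmb*, a melanosome protein also made by other cells (ENSMUSG00000029816, mm10 chromosome 6, 49036546 to 49070929), was at 79.4, 79.5 and 92.95 CPM in HFSC, 154 and 66.7 in the ORS libraries, 2877 and 3016 in basal and 1229 and 1331 in suprabasal HB (log2 change 4.34, SE 0.24, adjusted p = 2.5e-06) and was the 1 gene with basal HB above suprabasal HB. None of the 15 was at 0 in any population. The other 14 had suprabasal HB above basal HB by 2.43 to 4.06 on the log2 scale, with a median of 3.72. Of the 954 genes higher in all 4 comparisons, 82 had a layer difference of at least 2.43, as did 345 of all genes tested and 3 of the 15 largest rises. WNT targets higher in both layers had a median layer difference of 0.24 (-1.04 to 2.2) and cholesterol genes one of 0.05 (-1.02 to 1.0). Whether melanocytes contributed to any single gene or list was not tested.

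**Figure D5:**
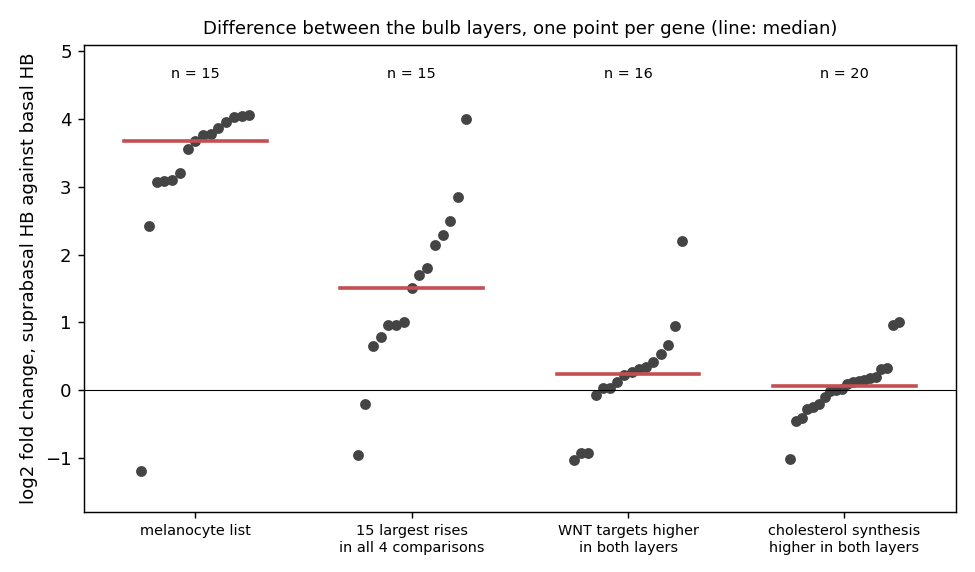
Log2 fold change of suprabasal HB against basal HB, one point per gene, for the melanocyte list, the 15 largest rises, and the WNT target and cholesterol genes higher in both layers, with red lines at the medians of 3.68, 1.5, 0.24 and 0.05. The melanocyte genes other than *Gpnmb* sit at 2.43 or above, as do 3 of the 15 largest rises.

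Of 25 dermal fibroblast and papilla genes, 3 were higher in both layers and 2 lower, near or below the shares of all genes, and 15 were higher in basal HB, beside 19.0% of all genes. The summed level was 2863 to 4497 CPM in HFSC, 1393 to 2215 in ORS, 3302 to 3868 in basal HB and 2440 to 5139 in suprabasal HB, so the sums overlapped. The 3 were 5 without suprabasal HB replicate 2, and the 2 were 1 without either basal HB replicate or on TPM values. Of 14 muscle genes, 2 were higher in both layers and 1 lower. *Myh11*, a myosin of smooth muscle, was at 14.5, 12.2 and 18.8 CPM in HFSC, 23 and 6.29 in the ORS libraries, 385 and 396 in basal and 8.95 and 5.33 in suprabasal HB, and stood out in basal HB. The list as a whole did not follow it. In basal HB 7 of the 14 were higher and 1 lower, and in suprabasal HB 3 and 5. The shares of all genes were 19.0% and 20.2%, and 20.2% and 20.2%. The summed level was highest in HFSC, at 1983 to 2638 CPM, against 1457 to 1659 in basal HB. The 2 higher muscle genes were 4 without ORS replicate 1 and 1 without any one of HFSC replicate 3, ORS replicate 2 and the 4 bulb libraries, or on log2(TPM + 0.1). Of 14 sebaceous genes, 5 were higher in both layers and 0 lower, namely the lipid enzymes *Soat1*, *Dgat2*, *Scd1* and *Fasn*, and *Pparg*. In basal HB 10 of the 14 were higher, beside 19.0% of all genes. The summed level of the 14 was 478 to 509 CPM in HFSC, 732 to 748.5 in ORS, 1751 to 1785 in basal HB and 1012 to 1094 in suprabasal HB. *Cidea* and *Plin5*, lipid droplet genes of the gland, reached at most 0.399 and 0.247 CPM. The part of gland cells was not tested. Endothelial and blood genes were lower in 1 of 15 cases, and 0 of 15 immune genes were called the same way in both layers by edgeR, also at an unadjusted p of 0.05 and with DESeq2 or limma. Of the 6 sort markers, *Cd34*, *Cdh3* and *Lhx2* were lower in both layers, and *Itga6*, *Itgb1* and *Ly6a* were not called in both. Sorting used the products of 5 of them directly, and *Lhx2* may be gated if the GFP was that of the strain label. For all 6, gate and population cannot be told apart.

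Most genes with opposite calls in the layers were hidden in the mean, while 75 of the 326 were also called in bulb against upper. *Itga8* and *Pdgfrb*, described below, were among these 75. *Myf5*, a muscle lineage factor, was at 0.544, 0.133 and 0.291 CPM in HFSC, 0.103 and 0.179 in the ORS libraries, 2.75 and 4.34 in basal and 0.0188 and 0 in suprabasal HB, and *Pax7*, another such factor, at 0.363, 0.222 and 0.3999 CPM in HFSC, 0.546 and 0.682 in the ORS libraries, 7.09 and 9.21 in basal and 0 and 0.134 in suprabasal HB. Both were above the upper range in basal HB and below it in suprabasal HB. *Fgfr4*, an FGF receptor, was at 0.761, 0.975 and 1.64 CPM in HFSC, 1.05 and 1.02 in the ORS libraries, 12.2 and 15.7 in basal and 0.132 and 0.291 in suprabasal HB. *Itga8*, an integrin chain, was at 3.19, 4.52 and 4.22 CPM in HFSC, 2.98 and 1.34 in the ORS libraries, 36.9 and 35.6 in basal and 1.85 and 0.761 in suprabasal HB, and *Pdgfrb*, a receptor of mural and dermal cells, at 16.1, 12.3 and 20.1 CPM in HFSC, 9.67 and 6.704 in the ORS libraries, 87.8 and 95.7 in basal and 7.09 and 5.86 in suprabasal HB. The smooth muscle gene *Myh11* was high in the same basal HB libraries, where the summed muscle genes were at 1457 and 1659 CPM against 99.9 and 68.2 in suprabasal HB, 1983 to 2638 in HFSC and 521 to 660.5 in ORS. The part of muscle cells in these differences was not tested. In the other direction, *Grhl3*, a factor of epidermal barrier formation, was at 9.65, 12.01 and 12.3 CPM in HFSC, 13.2 and 10.1 in the ORS libraries, 4.04 and 3.48 in basal and 29.2 and 21.9 in suprabasal HB, and *Krt71*, an inner root sheath keratin, at 144, 301 and 318 CPM in HFSC, 482 and 209.8 in the ORS libraries, 120.4 and 90.7 in basal and 905 and 479.6 in suprabasal HB. *Foxn1*, a factor of hair keratin expression, was at 7.91, 11.6 and 11.3 CPM in HFSC, 11.2 and 10 in the ORS libraries, 7.68 and 6.26 in basal and 27.4 and 23.5 in suprabasal HB, and *Notch1*, a NOTCH receptor, at 383, 274 and 354 CPM in HFSC, 312 and 404 in the ORS libraries, 171 and 157 in basal and 614 and 444 in suprabasal HB. *Grhl3* and *Foxn1* were lowest in basal HB and highest in suprabasal HB.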

How the data were processed

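RNA sequencing was measured in 9 libraries of 4 sorted mouse populations. Per the submitters' processing notes, the authors used Bowtie2 2.2.9 and RSEM 1.2.30 with mm10, and the deposited tables hold an expected count and a TPM value per gene (46517 entries in each). The strand setting of the counting is not given in the sources used here. The deposited FPKM values (9 columns) were not used, nor was a series TPM table of 9 columns, 3 of whose names match no label. The members and gene lists were chosen with earlier results of these data known.

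Expected counts were rounded, filtered with filterByExpr (20491 genes kept), scaled by TMM (factors 0.9 to 1.13) and tested with the quasi-likelihood test of edgeR 4.0.16 (R 4.3.3), with 1 mean per population and 5 residual degrees of freedom. Bulb minus upper was a contrast of population means. All p-values are edgeR's, adjusted by Benjamini-Hochberg over all genes tested, with a threshold of 0.05, and each standard error (SE) was derived from the F statistic. Each layer was also tested against the upper mean, against HFSC and ORS singly, and against the other layer. Alternatives used upper-quartile scaling, other filters, DESeq2 1.42.0, limma 3.58.1 on log2(TPM + 1) and log2(TPM + 0.1), a replicate block, 2 groups with no population term, a fold of 1.5, and each library left out. Scripts were tested on simulated counts.

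Named genes were autosomal, protein-coding and at 1 CPM or more on the higher side. They were the markers, the 15 higher and 15 lower genes with the largest smallest change over 4 comparisons, the 10 transcription factors each way by that measure, 3 leading members per list called the same way in both layers, and members called opposite ways. Other list members named in the text (*Mcm6*, *Myh11*, *Mitf*, *Wnt7b* and genes given by 1 value) were chosen after their values were seen, and some genes that met the rule are not reported here. Positions are from GENCODE M21, which matched 98.9% of entries, and promoters from RefSeq.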

Additional observations from a re-analysis of the deposited data

Results flagged for a closer look

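The following genes were called in both bulb layers in opposite directions against the mean of HFSC and ORS, and the difference between the layers itself passed edgeR's test. The values are log2 fold changes of suprabasal HB minus basal HB.

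Among the genes with the largest opposed changes, the muscle lineage factors *Myf5* and *Pax7* had differences of -8.14 and -6.97, *Itih4*, *Olfr558* and *Map3k7cl* of -6.69, -7.86 and -5.92, and *Krt71*, *Hvcn1*, *Fam26d*, *Grhl3* and *Enho* of 2.71, 2.56, 2.44, 2.77 and 2.67. Both suprabasal HB libraries of *Myf5* and *Itih4*, and 1 of the 2 for *Pax7* and *Olfr558*, were at or under the floor of 3 counts, so these fitted values depend on the prior count and are not bounds. Signalling genes higher in basal HB included the receptor *Fgfr4* (-6.06), *Bmp3* (-3.49), *Dtx4* (-3.56), *Dhh* (-3.0), *Tgfb3* (-2.94), *Ltbp1* (-2.45), *Errfi1* (-1.87), *Fst* (-1.26) and *Sema4a* (-0.90). *Dkk3*, *Notch1* and *Egfl7* were higher in suprabasal HB, by 2.05, 1.69 and 1.17.

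Among adhesion and matrix genes the differences were -4.78 for *Itga8*, -4.69 for *Itga7*, -1.53 for *Dsg2*, -1.25 for *Dsc2*, -1.63 for *Reck*, 2.23 for *Ocln* and 1.64 for *Dcn*. The mural and smooth muscle genes *Pdgfrb* and *Lmod1* had -3.82 and -5.23. The transcription factors *Foxn1*, *Myc* and *Dlx2* had 1.87, 1.2 and -0.95. Growth and metabolic genes gave 0.74 for *Fen1*, 0.69 for *Nop56*, 0.76 for *Rrp9*, 1.10 for *Dhcr7*, 1.66 for *Mgst1*, -1.64 for *Plin2* and -1.06 for *Ier3*. Exons of *Fen1* (84.2% of their length), *Hvcn1* (44.2%) and *Dhh* (25.2%) overlap genes on the opposite strand, and 23.8% of the words of *Nop56* occur in other genes.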

How the results depend on the processing

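With 2 groups and no population term, 1929 genes were higher and 2263 lower, and against a fold of 1.5, 2046 and 1971. Leaving out single libraries gave 3457 to 5304 genes higher and 3536 to 4423 lower, 1384 to 2557 higher and 1528 to 2503 lower in both layers, 645 to 1056 higher and 585 to 1122 lower in all 4 comparisons, and 148 to 331 with opposite calls. The low ends for lower genes in both layers, lower genes in all 4 comparisons and opposed genes came without basal HB replicate 1. Other settings moved no count by over 1.5 times, and higher genes made up 46.0% to 57.8% of calls, beside 48.3%. The log2 change of *Myf5* reversed from -0.06 to 0.81 on log2(TPM + 1) and 1.201 on log2(TPM + 0.1), and that of *Itga7* from -0.79 to 0.27 with 2 groups; the cause was not tested. *Fst* lost its call in 10 settings and *Lmod1* without suprabasal HB replicate 1 or either basal HB replicate. *Kif23* lost its call without suprabasal HB replicate 2, *Bmp3* on both TPM scales and *Itga7* on log2(TPM + 1). With 2 groups *Bmp3*, *Dtx4*, *Lmod1*, *Fst*, *Itga7* and *Kif23* did not pass either.

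A replicate block gave 4170 higher and 4373 lower genes, 1943 and 2352 in both layers, 879 and 986 in all 4 comparisons, and 260 opposed. Deviations of same-numbered samples correlated from -0.105 to 0.121, and the numbers were not taken as pairs. With 2 libraries in a population the 2 deviations mirror each other. For pairs without HFSC, replicate 2 therefore repeats the values of replicate 1. These correlations cannot tell whether same-numbered samples shared animals or a preparation. With 2 libraries in 3 of the populations, small changes may have been missed, and HFSC, with the fewest counts, limits genes near its floor of 3 counts.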
